A study of Homo sapiens with 7 samples.

Results

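The cytosolic and mitochondrial chaperone network was described by its mRNAs by poly(A) RNA sequencing of MOLM13 cells, an established human line of acute myeloid leukemia. The network was taken by gene symbol: the HSP, DNAJA, DNAJB, DNAJC, CCT, BAG and PFDN families, with TCP1, CHORDC1, STIP1, AHSA1, HSF1, HSF2, PTGES3 and CDC37 added by name. Of 93 matching symbols, 7 were left out by name, 6 of which belong to chaperones or co-chaperones of the endoplasmic reticulum (ER), and 6 were left out as pseudogenes, so that 80 of 11408 genes remained. Of the 80, 78 are annotated as protein coding. The other 2 are HSPA7, annotated as an unprocessed pseudogene, and DNAJC3-AS1, a long noncoding RNA whose symbol matches the family pattern.

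The 4 libraries of the tested arm are labelled as carrying 1 of 2 guide RNAs against ZFP36L2, with 2 libraries for each guide, named guide 3 and guide 5 after the deposited columns. The 3 control libraries carry sgRosa, which the labels call non-targeting. RNA of all 7 was taken 6 days after transduction, from cells of the same line in the same medium. Nothing in the labels tells if replicates came from separate cultures, and p-values then measure only the spread between these libraries, which may be technical. The listed genes took 28088053 to 38807816 reads in the libraries labelled with ZFP36L2 guides and 16907955 to 25164359 reads in control libraries. A single read stood for 0.0261 to 0.0540 CPM, reads scaled to the authors' adjusted library size. ZFP36L2 itself had 1132 and 1353 CPM with guide 3 and 734 and 690 CPM with guide 5, against 337, 334 and 311 CPM in controls. The mRNA of the targeted gene was therefore higher, not lower, in the libraries labelled with its guides (log2 change 1.52 ± 0.16 SE, limma adjusted p = 1.3e-05). Editing of the locus and the ZFP36L2 protein were not analysed here. All 6 myeloid markers looked for (PTPRC, CD33, FLT3, SPI1, LYZ and MPO) were in the tables, as the label of the line implies, and of 8 markers of other cell types 1 was, the endothelial and leukocyte gene PECAM1.

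Chaperones bind unfolded or partly folded proteins and keep them from aggregating. In the cytosol, J-domain proteins hand clients to HSP70, nucleotide exchange factors release them, and HSP90 with its co-chaperones finishes many kinases and receptors, while the ring-shaped chaperonin TRiC, fed by prefoldin, folds actin and tubulin. Mitochondria have their own HSP70 (HSPA9) and a chaperonin pair, HSPD1 and HSPE1. Heat shock factor 1 (HSF1) drives many of these genes through heat shock elements, inverted repeats of GAA and TTC in their promoters, and leukemia cells are known to express HSP90 and HSP70 at high levels.

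Because several of the genes share this element, the promoters were searched for it before turning to the values. The letters GAANNTTC and TTCNNGAA stand for a pair of units and GAANNTTCNNGAA and TTCNNGAANNTTC for 3 units in a row. Each motif of a pair of units reads the same on both strands, the 3-unit motifs are reverse complements of each other, and every match to 3 units also holds matches to a pair. The windows were the 250 bases before each start site in RefSeq (GRCh38.p14), where 69 of the 80 genes had 96 windows. No window was given for HSPB11, HSF1, DNAJC24, DNAJC5B, HSPA7, BAG4, HSPA14, DNAJC1, CCT6A, PFDN2 and DNAJC3-AS1. A pair of units was present in 22 windows of the network (22.9%), against 11.6% of all 35116 windows and 9.09% of the 12242 windows of genes in the tables. At least 3 units were present in 7 windows (7.29%), against 0.441% of all windows and 0.327% of those of genes in the tables. These 7 windows belong to 7 genes, and their matches are shown because they include the most abundant cytosolic chaperones. Each line gives the strand of the gene, 5′ to 3′, with the matched units in capitals and flanking bases in lower case.
CHORDC1: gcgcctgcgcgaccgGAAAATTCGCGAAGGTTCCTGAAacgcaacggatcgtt
HSP90AA1: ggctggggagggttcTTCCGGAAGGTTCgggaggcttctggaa
HSP90AB1, farther match: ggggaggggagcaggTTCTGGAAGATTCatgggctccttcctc
HSP90AB1, nearer match: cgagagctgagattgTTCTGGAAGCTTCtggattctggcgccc
HSPA8, farther match: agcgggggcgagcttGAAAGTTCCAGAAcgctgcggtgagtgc
HSPA8, nearer match: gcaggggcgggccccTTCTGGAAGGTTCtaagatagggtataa
HSPD1: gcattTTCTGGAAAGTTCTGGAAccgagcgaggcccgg
HSPA6: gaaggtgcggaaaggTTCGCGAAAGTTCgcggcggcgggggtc
DNAJB6: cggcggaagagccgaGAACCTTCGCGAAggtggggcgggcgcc

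The CHORDC1 match has 5 units in a row, at 60 to 38 bases before the start site (chr11:90223072-90223124, minus strand, as printed). The HSPD1 match has 4 units, at 245 to 228 bases before it (chr2:197500053-197500090, minus strand). The others have 3 units. HSP90AA1 holds its match at 88 to 76 bases (chr14:102087105-102087147, minus strand). HSP90AB1 has matches at 165 to 153 bases (chr6:44247763-44247805, plus strand) and at 112 to 100 bases (chr6:44247816-44247858, plus strand). HSPA8 has matches at 230 to 218 bases (chr11:123062339-123062381, minus strand) and at 55 to 43 bases (chr11:123062164-123062206, minus strand). HSPA6 has its match at 74 to 62 bases (chr1:161524451-161524493, plus strand) and DNAJB6 at 131 to 119 bases (chr7:157336858-157336900, plus strand). A match is a run of letters and not a measured binding site.

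Across the network, more mRNAs were lower than higher in the libraries labelled with ZFP36L2 guides, HSP90AB1, HSPA8 and HSP90AA1 among the lower ones. Of the 80 genes, 30 fell (37.5%), where 20.6% of all 11408 genes fell. Another 8 rose (10.0%), where 20.9% of all genes rose, and 42 did not pass the test (limma on log2 of CPM + 0.5, both guides over control, adjusted p under 0.05 over all genes). The median log2 change was -0.34 over the network and -0.05 over all genes. The 30 genes that fell had a median control level of 236 CPM, and the 8 that rose had 5.21 CPM, with a range of 0.0813 to 439 CPM. In bulk RNA, fewer cells of a type and less RNA per cell cannot be told apart.

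The summed level of the 80 genes was 15646 and 15136 CPM with guide 3 and 13317 and 14492 CPM with guide 5, against 21025, 26528 and 20369 CPM in controls. Every library labelled with a ZFP36L2 guide lay below every control. HSP90AB1, HSPA8 and HSP90AA1 together made up 26.9% ± 2.07 of this sum in guide libraries (SD, n = 4) and 35.8% ± 1.93 in controls (SD, n = 3). A high control level goes with falling among all genes in these libraries, so the counts are also given by level. The level is the control mean, from which the change is also taken, so level and change are not independent. Of 36 members with a control mean of at least 100 CPM, 19 fell and 2 (BAG6 and DNAJC5) rose, where 31.4% and 11.3% of all genes at that level did. Of 20 members with at least 300 CPM, 15 fell and 1 (BAG6) rose, where 34.3% and 10.8% of such genes did.

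**Figure D1:**
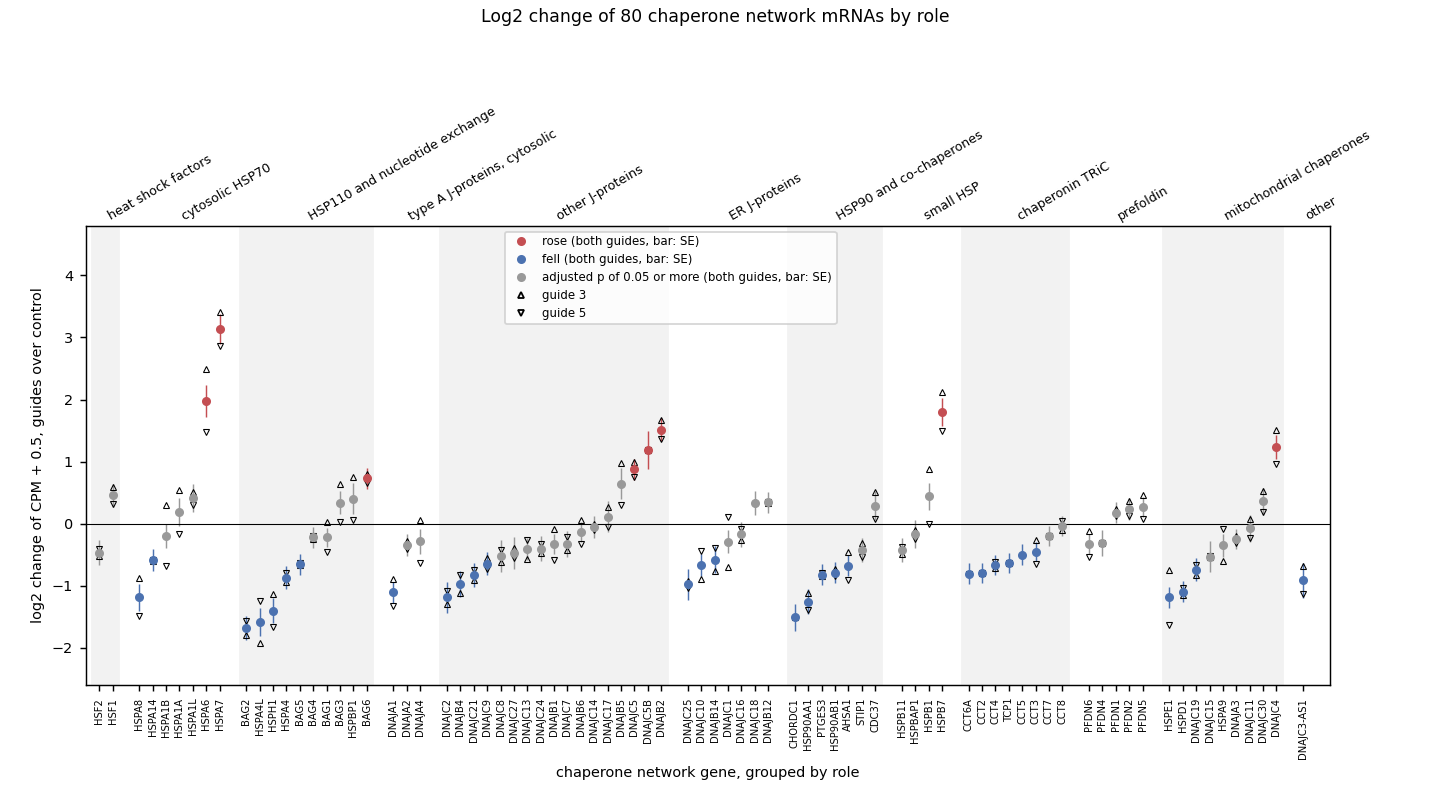
Log2 change of CPM + 0.5 (y axis) of the 80 chaperone network genes (x axis, grouped by role), ZFP36L2 guides over sgRosa control. Filled points are the mean of both guides with their SE, triangles the single guides, and the 30 genes that fell are seen in the HSP90, TRiC, HSP110 and other groups, with none among the prefoldin subunits.

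The groups were also compared library by library. In 31 members all 4 guide libraries lay below all 3 controls, where 23.7% of all genes did so. In 11 members all 4 lay above all controls, where 19.8% of all genes did so. Besides called genes, these counts take in CCT7, HSPB11 and DNAJC15 below and HSPA1L, DNAJC18 and DNAJB12 above.

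HSP90 is the dimeric chaperone of kinases and steroid receptors. Of the 7 genes for HSP90 and its co-chaperones, 5 fell and 0 rose, where 20.6% and 20.9% of all genes did. Their median log2 change was -0.79. HSP90AA1, the stress-inducible form, had 1086 and 866 CPM with guide 3 and 683 and 941 CPM with guide 5, against 2016, 2666 and 1744 CPM in controls. It fell by 1.26 on the log2 scale (SE 0.20, limma adjusted p = 0.00048), to 0.417 times the control mean. HSP90AB1, the constitutive form, had 1989 and 1837 CPM with guide 3 and 1720 and 1800 CPM with guide 5, against 3010, 3467 and 3057 CPM in controls. The groups did not overlap, and the level fell by 0.79 on the log2 scale (SE 0.17, limma adjusted p = 0.0031). Per kilobase of exon it was the most abundant gene of the group, with a mean of 616 CPM in guide libraries and 1066 CPM in controls.

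CHORDC1, a zinc-binding co-chaperone of HSP90 and the gene with the longest heat shock element match above, had 27.8 and 22.3 CPM with guide 3 and 21.8 and 27.8 CPM with guide 5, against 73.3, 94.1 and 52.8 CPM in controls. Its highest guide library lay below its lowest control, and the log2 change was -1.51 ± 0.22 (SE, limma adjusted p = 0.00018). The p23 gene PTGES3, which stabilizes the closed form of HSP90, averaged 278 ± 17.7 CPM in guide libraries and 494 ± 74.9 CPM in controls (SD, n = 4 and 3), a log2 change of -0.82 ± 0.17 (SE, limma adjusted p = 0.0023). AHSA1, the activator of the HSP90 ATPase, averaged 197 and 315 CPM in guide and control libraries (log2 change -0.68, limma adjusted p = 0.0075). STIP1 (HOP), which bridges HSP70 and HSP90, and CDC37, which recruits kinases, did not pass: their log2 changes were -0.42 (95% interval -0.83 to -0.01) and 0.29 (-0.21 to 0.79). After correction for GC content STIP1 was called lower (-0.84, limma adjusted p = 0.00092), and the sign of CDC37 turned (-0.40, limma adjusted p = 0.15).

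The cytosolic HSP70 genes were called in both directions. Of 7, HSPA8 and HSPA14 fell, HSPA6 and HSPA7 rose, and HSPA1A, HSPA1B and HSPA1L did not pass. Among all genes 20.6% fell and 20.9% rose. HSPA8, the constitutive HSC70, had 1547 and 1402 CPM with guide 3 and 867 and 1078 CPM with guide 5, against 2182, 3933 and 2336 CPM in controls. Control replicate 2 stood highest, and the lowest control was still above every guide library. The log2 change of HSPA8 was -1.19 ± 0.22 (SE, limma adjusted p = 0.0013). HSPA14, a ribosome-associated HSP70, averaged 34.5 ± 3.30 CPM in guide libraries and 52.3 ± 6.06 CPM in controls (SD, n = 4 and 3; log2 change -0.59, limma adjusted p = 0.018).

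HSPA1A and HSPA1B encode the classic stress-inducible HSP70 and are near-identical copies, so reads may be split between them and each value is uncertain. Their sum was 30.04 and 33.4 CPM with guide 3 and 18.1 and 14.0 CPM with guide 5, against 25.5, 21.5 and 29.2 CPM in controls. The guide 3 libraries stood above all controls and the guide 5 libraries below all of them. HSPA1B had a log2 change of -0.19 ± 0.19 (SE, limma adjusted p = 0.43) with the guides together, and -0.80 after correction for GC content (limma adjusted p = 0.0012), which was called as a fall. HSPA1A had 0.19 ± 0.23 (SE, limma adjusted p = 0.52), and its sign turned with quantile normalization (-0.37) and with correction for GC content (-0.47).

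HSPA6 and HSPA7 are another near-identical pair on chromosome 1. HSPA6 encodes HSP70B′, a form with little expression in unstressed cells. Summed, the pair had 8.54 and 8.39 CPM with guide 3 and 5.81 and 4.04 CPM with guide 5, against 0.162, 0.0468 and 0.327 CPM in controls. HSPA6 took 105, 93, 47 and 30 reads in the guide libraries, against 0, 1 and 6 reads in controls. The 0 reads of control replicate 1 allow up to 3 reads, or 0.162 CPM, counting error alone. HSPA7 took 175, 228, 170 and 88 reads in the guide libraries, against 3, 0 and 2 reads in controls. Both rose (log2 changes of CPM + 0.5 of 1.98 ± 0.26 and 3.14 ± 0.24 SE, limma adjusted p = 8.6e-05 and 8.6e-07), and the pseudocount makes these changes smaller than those of the raw levels. In the authors' deposited table the log2 changes of HSPA7 were 6.10 with guide 3 and 5.53 with guide 5, and those of HSPA6 were 4.65 and 3.36.

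**Figure D2:**
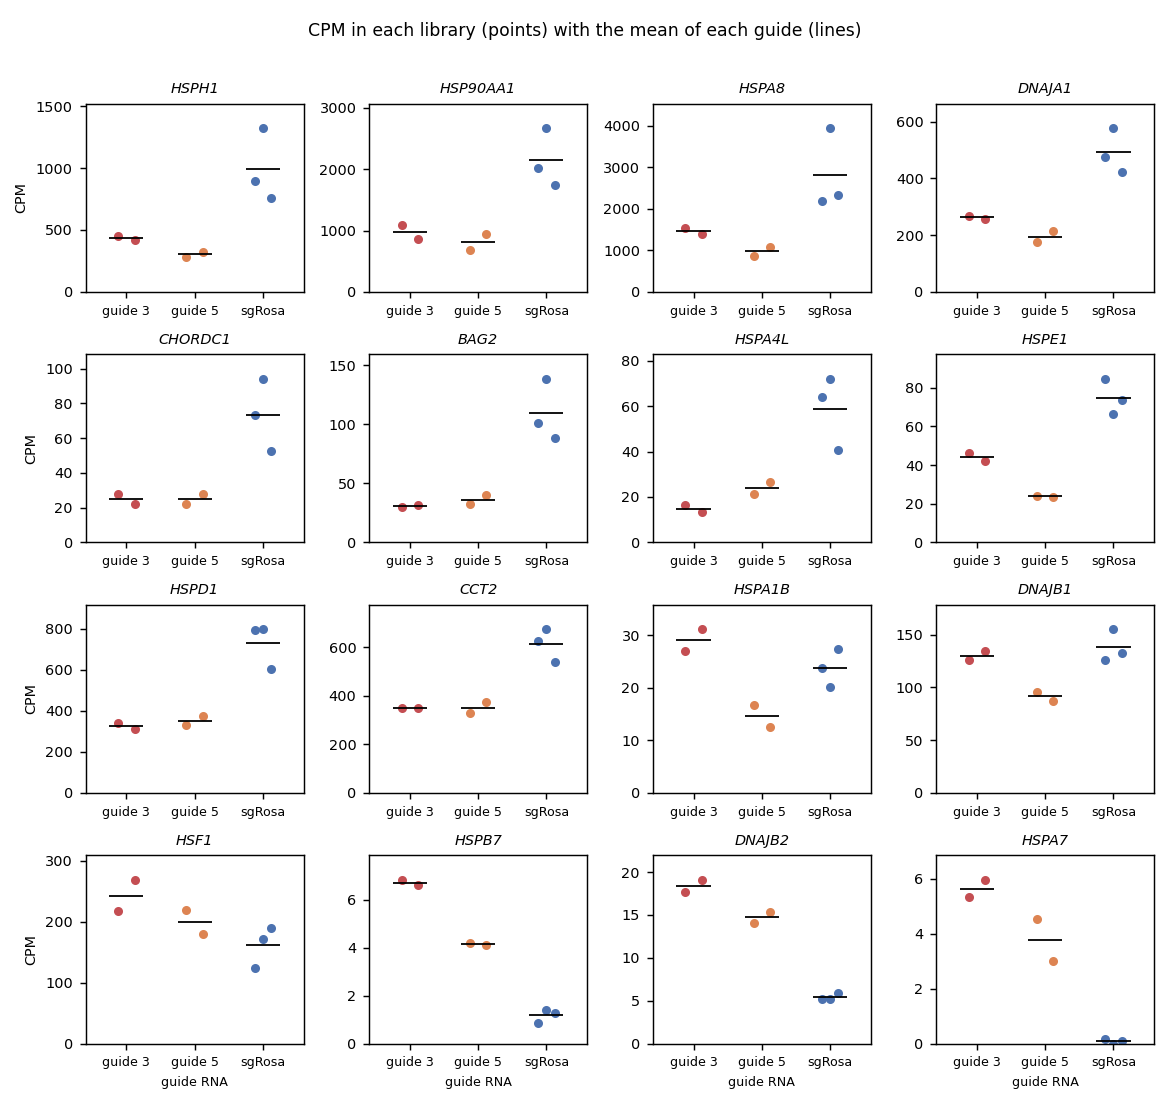
CPM (y axes, each from 0) of 16 chaperone network genes in each library, with guide 3 and guide 5 libraries left of sgRosa controls. Points are libraries and lines the mean of each guide: HSPH1, HSP90AA1, HSPA8, DNAJA1, CHORDC1, BAG2, HSPA4L, HSPE1, HSPD1 and CCT2 show no overlap, HSPA1B, DNAJB1 and HSF1 overlap, and HSPB7, DNAJB2 and HSPA7 are higher in every guide library.

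HSP110 proteins and BAG proteins release nucleotide from HSP70. Of 10 genes of this kind, 5 fell, 1 rose and 4 did not pass, where 20.6% of all genes fell and 20.9% rose. The median log2 change of the 10 was -0.44. BAG2, which also inhibits the ubiquitin ligase CHIP, had the lowest log2 change of the network. It had 29.9 and 31.7 CPM with guide 3 and 32.4 and 39.7 CPM with guide 5, against 101, 138 and 88.6 CPM in controls. Its mean was 0.305 times that of controls (log2 change -1.68 ± 0.19 SE, limma adjusted p = 2.8e-05).

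HSPA4L, an HSP110 family member, had 16.5 and 13.2 CPM with guide 3 and 21.3 and 26.55 CPM with guide 5, against 64.0, 71.998 and 40.7 CPM in controls (log2 change -1.59 ± 0.22 SE, limma adjusted p = 0.00015). HSPH1, the main HSP110, had 455 and 421 CPM with guide 3 and 285 and 325.5 CPM with guide 5, against 894, 1321 and 761 CPM in controls. The lowest HSPH1 control exceeded the highest guide library, and the log2 change was -1.40 ± 0.20 (SE, limma adjusted p = 0.00017). HSPA4 (APG-2), the third of the family, fell too, with means of 271 and 497 CPM in guide and control libraries (log2 change -0.87, limma adjusted p = 0.0028).

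BAG5 fell with a log2 change of -0.65 (limma adjusted p = 0.0084). BAG6, a chaperone for tail-anchored and mislocalized proteins, rose, with 686 and 832 CPM with guide 3 and 741 and 640 CPM with guide 5, against 389, 408 and 519 CPM in controls. All guide libraries were above all controls (log2 change 0.73 ± 0.17 SE, limma adjusted p = 0.0061), and after correction for GC content the change was 0.09 (limma adjusted p = 0.39). BAG3, the stress-inducible BAG protein of selective autophagy, averaged 28.2 ± 7.06 CPM in guide libraries and 21.8 ± 3.29 CPM in controls (SD, n = 4 and 3). It did not pass (log2 change 0.34, limma adjusted p = 0.15, and -0.18 after correction for GC content). BAG1, BAG4 and HSPBP1 had log2 changes of -0.22, -0.22 and 0.41 and did not pass either. After correction for GC content BAG4 was at 0.18 (limma adjusted p = 0.10) and HSPBP1 at -0.42 (limma adjusted p = 0.020), so that both signs turned and HSPBP1 was called lower.

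J-domain proteins stimulate the ATPase of HSP70 and choose its clients. Of the 3 cytosolic type A members, DNAJA1 fell and DNAJA2 and DNAJA4 did not pass. DNAJA1 had 268 and 259 CPM with guide 3 and 177 and 214 CPM with guide 5, against 475, 577 and 422 CPM in controls. The groups did not overlap (log2 change -1.11 ± 0.17 SE, limma adjusted p = 0.00034). DNAJA2 and DNAJA4 had log2 changes of -0.35 (limma adjusted p = 0.12) and -0.28 (limma adjusted p = 0.27).

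Of 17 other J-proteins, 4 fell and 3 rose, where 20.6% and 20.9% of all genes did. DNAJC2, the ribosome-associated MPP11, had 59.6 and 45.7 CPM with guide 3 and 50.3 and 71.5 CPM with guide 5, against 108, 201 and 96.9 CPM in controls (log2 change -1.19 ± 0.25 SE, limma adjusted p = 0.0028). DNAJB4, DNAJC21, which acts in ribosome maturation, and DNAJC9, which also binds histones, fell by 0.97, 0.83 and 0.64 on the log2 scale (limma adjusted p = 0.0037, 0.0056 and 0.013). DNAJB1 (HSP40), the classic stress-inducible J-protein, had 126 and 134 CPM with guide 3 and 95.7 and 87.3 CPM with guide 5, against 126, 155 and 133 CPM in controls. Its guide 3 libraries lay within the control range and its guide 5 libraries below it. The log2 change of DNAJB1 with both guides was -0.33 ± 0.16 (SE, limma adjusted p = 0.11), and after correction for GC content it was -0.63 (limma adjusted p = 0.00031).

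DNAJB2, which directs ubiquitinated clients to the proteasome, had 17.6 and 19.1 CPM with guide 3 and 14.1 and 15.3 CPM with guide 5, against 5.24, 5.14 and 5.94 CPM in controls. That is 3.04 times the control mean (log2 change 1.51 ± 0.19 SE, limma adjusted p = 5.8e-05), with no overlap. DNAJC5, the cysteine string protein of secretory vesicles, averaged 252 ± 28.3 CPM in guide libraries and 138 ± 19.4 CPM in controls (SD, n = 4 and 3). Its log2 change was 0.87 (limma adjusted p = 0.0015), and 0.32 after correction for GC content (limma adjusted p = 0.053). Its paralog DNAJC5B had 11.95 and 9.57 CPM with guide 3 and 10.6 and 10.8 CPM with guide 5, against 3.08, 8.74 and 3.11 CPM in controls (log2 change 1.18 ± 0.31 SE, limma adjusted p = 0.0092). Control replicate 2 stood nearest to the guide libraries. The other 10 J-proteins of this kind, among them DNAJB6, DNAJC7 and DNAJC13, had log2 changes of -0.52 to 0.64 and did not pass.

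J-proteins of the ER membrane and lumen that stayed in the network numbered 7. Of these 3 fell and 0 rose, where 20.6% and 20.9% of all genes did. DNAJC25, DNAJC10, a disulfide reductase of the ER lumen, and DNAJB14 had log2 changes of -0.98 ± 0.25, -0.66 ± 0.18 and -0.58 ± 0.21 (SE, limma adjusted p = 0.0085, 0.012 and 0.044). DNAJB14 was one of 2 falling genes whose groups overlapped, the other being DNAJC3-AS1. After correction for GC content the change of DNAJB14 was -0.08 (limma adjusted p = 0.68). DNAJC1, DNAJC16, DNAJC18 and DNAJB12 did not pass, with log2 changes of -0.29 to 0.34.

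TRiC is a double ring of 8 different subunits, all of which were measured. Of the 8, 6 fell and 0 rose, where 20.6% and 20.9% of all genes did, and their median log2 change was -0.56. CCT2 had 350 and 351 CPM with guide 3 and 329 and 373 CPM with guide 5, against 625, 674 and 540 CPM in controls (log2 change -0.80 ± 0.16 SE, limma adjusted p = 0.0022). CCT6A had 394 and 368 CPM with guide 3 and 332 and 427 CPM with guide 5, against 661, 710 and 618 CPM in controls (log2 change -0.80 ± 0.16 SE, limma adjusted p = 0.0024). The log2 changes of CCT4, TCP1, CCT5 and CCT3 were -0.67, -0.63, -0.50 and -0.45 (limma adjusted p = 0.0071, 0.0084, 0.03 and 0.033).

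The other TRiC subunits, CCT7 and CCT8, did not pass. CCT8 had 630 and 602 CPM with guide 3 and 638.5 and 733 CPM with guide 5, against 636, 720 and 637 CPM in controls, and the groups overlapped (log2 change -0.03, 95% interval -0.38 to 0.31, and 0.21 after correction for GC content). CCT7 averaged 616 ± 9.38 CPM in guide libraries and 709 ± 49.7 CPM in controls (SD, n = 4 and 3), with every guide library below every control (log2 change -0.20, 95% interval -0.54 to 0.14). Per kilobase of exon the mean levels of the 8 subunits ran from 81.1 to 195 CPM in guide libraries and from 126 to 204 CPM in controls. CCT8 and CCT7 were the highest in guide libraries on this scale. Whether CCT7 or CCT8 differ from the other subunits in their change was not tested.

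Prefoldin delivers unfolded actin and tubulin to TRiC. None of its 5 subunits in the network passed in either direction: log2 changes ran from -0.32 for PFDN6 to 0.27 for PFDN5. PFDN5 averaged 220 ± 41.1 CPM in guide libraries and 181 ± 21.4 CPM in controls, and PFDN6 63.6 ± 11.9 and 78.7 ± 2.76 CPM (SD, n = 4 and 3 each). After correction for GC content PFDN6 was lower (-0.93, limma adjusted p = 0.0004). VBP1, the remaining prefoldin subunit whose symbol lies outside the family pattern, had means of 56.9 and 97.6 CPM in guide and control libraries (log2 change -0.76, limma adjusted p = 0.0044).

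**Figure D3:**
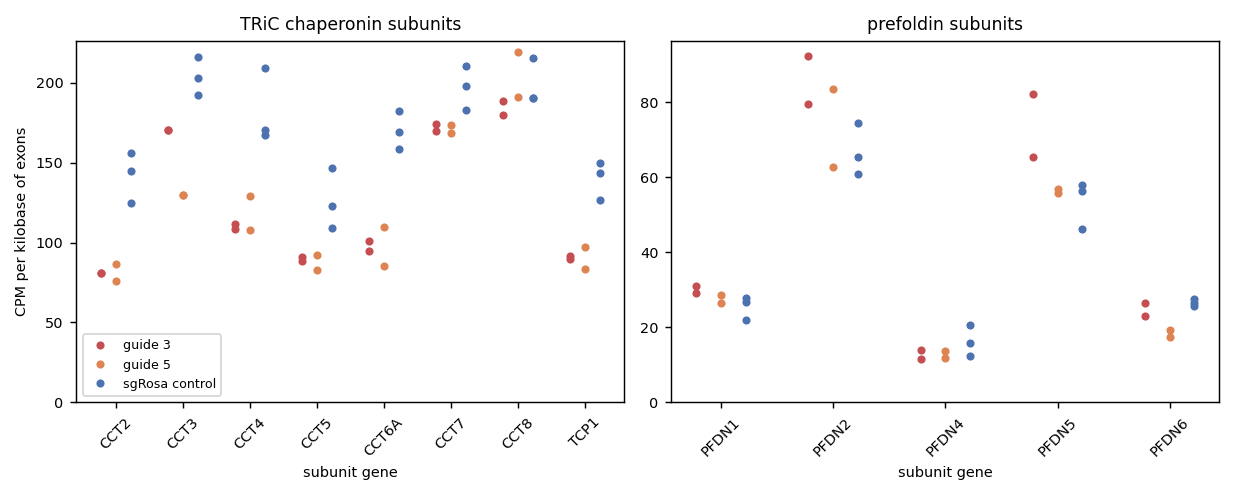
CPM per kilobase of exon (y axes) of the 8 TRiC and 5 prefoldin subunits (x axes) in each library, with guide 3, guide 5 and sgRosa control from left to right within a subunit. CCT8 and the prefoldin subunits overlap between groups, while the guide libraries lie below all controls for the other TRiC subunits.

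Of 9 genes grouped with mitochondria, 3 fell, 1 rose and 5 did not pass, where 20.6% of all genes fell and 20.9% rose. HSPD1 and HSPE1, which form the matrix chaperonin and its lid and share a bidirectional promoter, both fell. HSPD1 had 343 and 312 CPM with guide 3 and 330 and 374 CPM with guide 5, against 793, 797 and 602 CPM in controls (log2 change -1.09 ± 0.17 SE, limma adjusted p = 0.00037). HSPE1 had 46.2 and 42.3 CPM with guide 3 and 23.9 and 23.7 CPM with guide 5, against 84.5, 66.4 and 73.4 CPM in controls (log2 change -1.18 ± 0.17 SE, limma adjusted p = 0.00018). Both genes had all guide libraries below all controls, and HSPE1 was lower with guide 5 than with guide 3 in each library. HSPE1 shares exons with the HSPE1-MOB4 read-through gene, so its reads may be split. HSPA9 (mortalin), the mitochondrial HSP70, had 452 and 435 CPM with guide 3 and 582 and 693 CPM with guide 5, against 610, 870 and 576 CPM in controls. It did not pass (log2 change -0.34, 95% interval -0.74 to 0.05, limma adjusted p = 0.15).

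DNAJC19, a J-protein of the inner membrane import motor, averaged 11.4 ± 0.783 CPM in guide libraries and 19.4 ± 2.25 CPM in controls (SD, n = 4 and 3; log2 change -0.74, limma adjusted p = 0.0074). DNAJC4 had 40.9 and 51.7 CPM with guide 3 and 33.5 and 28.8 CPM with guide 5, against 12.9, 16.1 and 18.9 CPM in controls. It rose (log2 change 1.23 ± 0.19 SE, limma adjusted p = 0.00041) with no overlap, and shares exons on the same strand with NUDT22, so part of its reads is uncertain. DNAJC15, DNAJA3, DNAJC11 and DNAJC30 did not pass, with log2 changes of -0.53 to 0.36.

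Small heat shock proteins hold unfolded proteins without ATP. HSPB7, known best from heart muscle, had 6.83 and 6.61 CPM with guide 3 and 4.20 and 4.11 CPM with guide 5, against 0.864, 1.40 and 1.27 CPM in controls, that is 224, 253, 157 and 120 reads against 16, 30 and 31. Every guide library was above every control (log2 change 1.80 ± 0.22 SE, limma adjusted p = 5.5e-05). HSPB1 (HSP27) had 140 and 198 CPM with guide 3 and 104 and 77.7 CPM with guide 5, against 97.1, 66.2 and 113 CPM in controls. Guide 3 libraries stood above all controls and guide 5 libraries among them (log2 change 0.44, limma adjusted p = 0.12). HSPB1 was called lower after correction for GC content (-0.40, limma adjusted p = 0.016). It was called higher with a replicate block (0.60, limma adjusted p = 0.026) and without control replicate 3 (0.60, limma adjusted p = 0.044). The block drops control replicate 3, so it gives the same change as leaving that library out. HSPB11, an intraflagellar transport subunit in spite of its symbol, and HSPBAP1, which binds HSPB1, had log2 changes of -0.43 and -0.17 and did not pass.

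The heat shock factors did not pass the test, but their calls varied with the processing. HSF1 had 217 and 269 CPM with guide 3 and 220 and 180 CPM with guide 5, against 125, 172 and 190 CPM in controls. The groups overlapped (log2 change 0.46 ± 0.19 SE, limma adjusted p = 0.068), and the sign turned after correction for GC content (-0.34, limma adjusted p = 0.053). HSF1 passed as higher with quantile normalization (limma adjusted p = 0.030), median of ratios scaling (0.029), a replicate block (0.032), and without control replicate 2 (0.035) or control replicate 3 (0.033). HSF2 had 33.5 and 27.3 CPM with guide 3 and 29.1 and 36.7 CPM with guide 5, against 39.4, 58.3 and 36.0 CPM in controls (log2 change -0.46 ± 0.21 SE, limma adjusted p = 0.086). HSF2 passed as lower with quantile normalization (limma adjusted p = 0.041), a replicate block (0.036) and without control replicate 3 (0.039). The replicate block drops control replicate 3, so for HSF1 and HSF2 it gives the same change as leaving that library out. The activity of the factors is set largely after translation and was not measured. DNAJC3-AS1 averaged 3.36 ± 0.779 CPM in guide libraries and 7.14 ± 3.35 CPM in controls (SD, n = 4 and 3; log2 change -0.91, limma adjusted p = 0.021).

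The promoters shown above can be set beside these results. Of the 40 windows of genes that fell, 5 held at least 3 units (12.5%), as did 1 of the 8 windows of genes that rose (12.5%) and 1 of the 48 windows of the others (2.08%). HSP90AA1, HSP90AB1, HSPA8, HSPD1 and CHORDC1 were lower and HSPA6 was higher, while DNAJB6 averaged 66.7 ± 11.3 CPM in guide libraries and 72.6 ± 3.98 CPM in controls (SD, n = 4 and 3) and did not pass. A pair of units was in 27.5% of the windows of genes that fell, 12.5% of those that rose and 20.8% of the others. HSPA1A, HSPA1B, DNAJB1 and HSPB1, heat shock genes that did not pass, hold a pair of units within these windows. So do BAG2, CCT2, DNAJA1, DNAJB4, HSPA4L and TCP1, which fell, while HSPH1 and HSPE1, which also fell, hold none in their own windows. The 4-unit match of HSPD1, which has a bidirectional promoter in common with HSPE1, lies outside the HSPE1 window. No test of the shares of windows was made.

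The guides were compared with control one at a time. With guide 3, 11 members rose and 28 fell, where 21.2% and 18.9% of all genes did. With guide 5, 8 rose and 26 fell, where 12.2% and 7.68% of all genes did. Both comparisons share the 3 controls. Rises with each guide numbered 8 and falls with each 21. The share of all genes called with each was not counted, so agreement between the guides cannot be set against it. BAG3, HSPB1 and DNAJB5 passed as higher with guide 3 but not with guide 5. AHSA1, CCT3, DNAJB1, DNAJC9 and DNAJC3-AS1 passed as lower with guide 5 but not with guide 3. DNAJC19, DNAJC10, HSPA14, DNAJB14, DNAJC13, HSPA9 and DNAJC1 passed as lower with guide 3 but not with guide 5. In the authors' deposited table, at a false discovery rate under 0.05, 11 rose and 28 fell with guide 3. With guide 5, 7 rose and 25 fell there. The share of all genes at that rate was not counted, so these counts cannot be set against it. The signs of all 80 changes were the same as here, but both fits use the same 7 libraries. With 2 libraries a guide, counts for 1 guide rest on single libraries. Falls with guide 3 numbered 15 without guide 3 replicate 1 and 5 without guide 3 replicate 2, and rises with guide 3 numbered 6 without guide 3 replicate 2. Falls with guide 5 numbered 6 without guide 5 replicate 1, 11 without guide 5 replicate 2 and 16 without control replicate 1. Rises with guide 5 numbered 3, 4 and 5 in the same order. For these reduced sets of libraries, shares of all genes with a single guide were not counted.

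The difference between the guides was tested directly. Of all genes, 0.351% were higher and 0.0614% were lower with guide 5 than with guide 3. In the network 0 were higher and 0 lower by limma, and limma voom on recovered reads also gave 0 and 0. At an unadjusted p under 0.05, 2 were higher and 11 lower, and the share of all genes at that level was not counted. These 2 counts therefore cannot be read as a trait of the network, whose smallest adjusted p was 0.157. The log2 difference of guide 5 minus guide 3 was -1.01 for HSPA6 (95% interval -1.74 to -0.28), -0.97 for HSPA1B (-1.52 to -0.42), -0.89 for HSPB1 (-1.50 to -0.27) and -0.88 for HSPE1 (-1.36 to -0.40). The 2 higher members were DNAJC1 at 0.80 (0.29 to 1.32) and HSPA4L at 0.67 (0.04 to 1.29). For HSP90AB1 the interval was -0.60 to 0.36 and for CCT2 -0.46 to 0.46. Without control replicate 2, 1 member was called higher and 4 lower with guide 5, and the share of all genes between the guides in that fit was not counted.

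Leaving out single libraries bore on calls with both guides together as well. Of the 30 falls, 20 were called whichever library was left out, as were 7 of the 8 rises. The exceptions were DNAJC5B, which lost its call without control replicate 1, and 10 falling genes. Without guide 5 replicate 1, TCP1, CCT4, BAG5, CCT3, CCT5, HSPA14, DNAJC10, DNAJB14 and DNAJC3-AS1 were not called. Without guide 3 replicate 2, CCT3, CCT5, HSPA14, DNAJC10, DNAJB14 and DNAJC3-AS1 were not called. Without control replicate 1, CCT5, HSPA14, DNAJB14 and DNAJC3-AS1 were not called, without guide 3 replicate 1 CCT3, CCT5 and DNAJC9, and without guide 5 replicate 2 CCT3, CCT5, DNAJC9 and DNAJB14. DNAJB14 also lost its call without control replicate 2 and CCT3 without control replicate 3. The share of all genes called in every such fit was not counted. The counts of members kept in every fit therefore cannot be read as a trait of the network.

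Other genes of the same pathways were counted from lists. Of 43 partner co-chaperones and related folding factors in the tables, 13 fell and 5 rose, where 20.6% and 20.9% of all genes did, with a median log2 change of -0.20. After correction for GC content 18 of them fell and 1 rose, where 29.4% and 17.8% of all genes did. The falls include FKBP5 (means of 173 and 355 CPM in guide and control libraries, log2 change -1.02, limma adjusted p = 0.0013) and PPID (46.0 and 80.2 CPM, -0.79, limma adjusted p = 0.0022), prolyl isomerases of HSP90 complexes. They also include ST13, the HSP70-interacting protein HIP (66.1 and 131 CPM, -0.89, limma adjusted p = 0.012). The rises before that correction are STUB1, which encodes CHIP, SGTA, DEDD2, and the mitochondrial proteases CLPP and LONP1. LONP1 averaged 328 CPM in guide libraries and 171 CPM in controls (log2 change 0.96, limma adjusted p = 0.0023). Of 18 ER chaperones, 6 fell and 0 rose, where 20.6% and 20.9% of all genes did, with a median of -0.17. After correction for GC content 10 of the ER chaperones fell and 1 rose, where 29.4% and 17.8% of all genes did. HSP90B1, the HSP90 of the ER, averaged 742 and 1292 CPM in guide and control libraries (log2 change -0.78, limma adjusted p = 0.0083), and HSPA5 (BiP) 471 and 631 CPM (-0.44, limma adjusted p = 0.039). Of 29 constitutive proteasome subunits, 9 fell and 0 rose, where 20.6% and 20.9% of all genes did, with a median of -0.21. After correction for GC content 7 of the proteasome subunits fell and 0 rose, where 29.4% and 17.8% of all genes did.

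Markers of monocyte differentiation moved in the same libraries. Of 10 listed, 9 were in the tables and 9 rose, where 20.9% of all genes did, with a median log2 change of 3.83, CD14 and S100A9 among them. Their summed level was 735 to 2020 CPM in guide libraries and 176 to 276 CPM in controls. Of the 6 myeloid markers, LYZ and SPI1 rose (log2 changes 1.37 and 1.16), FLT3 and MPO fell (-0.80 each), and PTPRC and CD33 did not pass. PECAM1 rose, with a log2 change of 1.49. The part of cell state in the chaperone changes was not tested.

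Base composition moved with the change as well. Of the 1141 genes of lowest transcript GC content 49.3% fell and 3.77% rose, and of the 1141 of highest 0.526% fell and 54.7% rose. The median GC content was 43.0% for the 30 members that fell, 51.4% for the 42 that did not pass and 58.7% for the 8 that rose. Once GC content and length were corrected for, 42 members fell and 7 rose, where 29.4% and 17.8% of all genes did, and the median change was -0.35 over the network and -0.12 over all genes. Of the 30 falls 29 were called again, DNAJB14 being the exception, and of the 8 rises 6, without DNAJC5 and BAG6. Being called again did not mean an equal change: CHORDC1 went from -1.51 to -1.01, DNAJC21 from -0.83 to -0.42 and DNAJC4 from 1.23 to 0.60. Larger after the correction were HSPE1, AHSA1, CCT3 and DNAJC5B, and the other genes called before had smaller or nearly equal changes. Called after the correction alone were 13 lower genes (HSPA1B, DNAJB1, STIP1, CCT7, PFDN6, HSPBP1, HSPB1, HSPB11, DNAJA3, DNAJA4, DNAJB6, DNAJC1 and DNAJC11) and 1 higher, DNAJC18. The sign turned for 16 of the 80, of which 0 were called before. The part of base composition in the change was not tested.

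**Figure D4:**
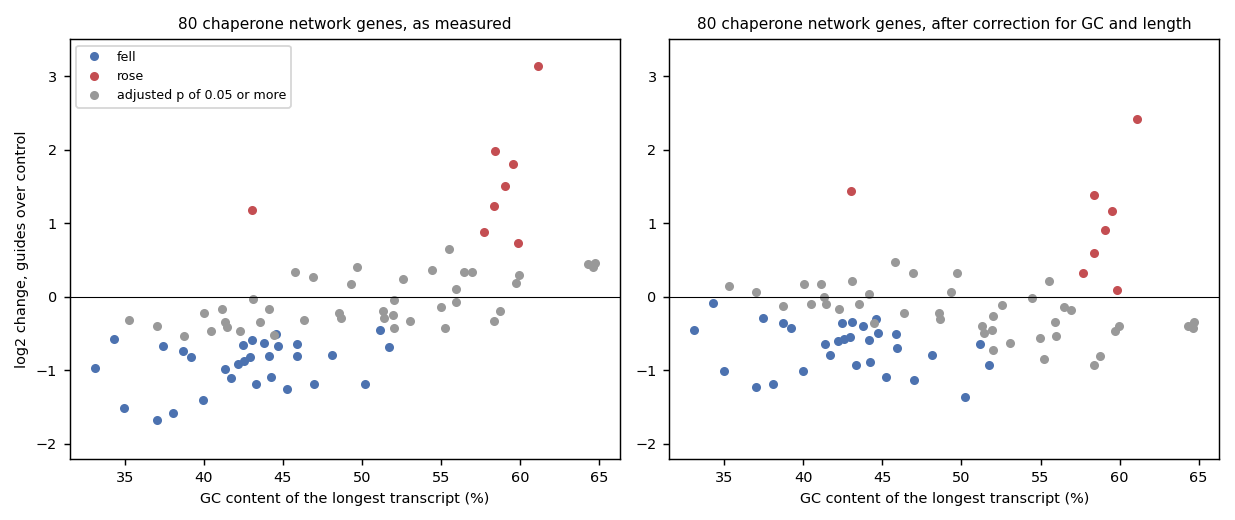
Log2 change of CPM + 0.5, ZFP36L2 guides over sgRosa control (y axes), against the GC content of the longest transcript (x axes) for the 80 chaperone network genes, as measured (left) and corrected for GC content and length (right). Colors give the call before correction: genes that fell had a median GC content of 43.0% and genes that rose 58.7%. All falling genes stay below 0 on the right.

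Some values are uncertain because genes overlap. On the same strand DNAJC9 shares exons with MRPS16, DNAJC25 with DNAJC25-GNG10 and DNAJB4 with GIPC2. The library kit marks strand, but how strand was set when reads were counted is not given in the sources used here. Without it, reads of HSPD1 and HSPE1, TCP1 and ACAT2, BAG2 and RAB23, and HSP90AA1 and WDR20 cannot be told apart where these opposite-strand genes overlap.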

How the data were processed

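Poly(A) RNA of 7 MOLM13 libraries was read in 50 cycles, single end, per the labels' protocols. STAR 2.5.3, HTSeq, edgeR, limma and GRCh38.p7 are named per the submitters' processing notes, without roles or parameters. The authors' deposited table holds FPKM per library, which are per kilobase of gene span, introns included. A second deposited table gives, for each guide against control, the log2 fold change and p-values adjusted to false discovery rates, and group means of CPM (a signal on the authors' adjusted library size). Of 11581 listed genes, 173 have no FPKM and were left out. FPKM times span gave CPM. In each library 100% of these were whole multiples of 1 read (within 0.01), so the depth is known. Depth limits cover counting error alone, since the labels describe no molecular identifiers. The deposited tables name guides 3 and 5, the labels number them otherwise, and no statement rests on matching them. Of the deposited columns of group CPM, 1 was not used.

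The values log2(CPM + 0.5) of all 11408 genes, without a filter, were fitted with limma 3.58.1 under R 4.3.3. Each of the 3 arms had its mean and variances followed a trend, with 4 residual degrees of freedom and a median of 8.78 prior ones. Tests were two-sided, p was adjusted by Benjamini-Hochberg over all genes, and the threshold was 0.05. "Rose" and "fell" are calls of this fit, guides over control. Named are 17 network genes of known role, up to 10 highest and 10 lowest called changes, up to 3 called genes a role, and others that complete a role. The members, lists, tests and alternatives were chosen with earlier results of these data known. The alternatives were other pseudocounts, filters, scalings, a GC and length correction, a replicate block and single libraries left out. The fit was also run on simulated data with independent noise and without the GC trend of these libraries. No statement here rests on that run. Gene models and GC content are from GENCODE 29 and promoters from RefSeq. Python 3.11.15, pandas 2.3.3 and matplotlib 3.10.9 were used for tables and figures.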

Additional observations from a re-analysis of the deposited data

How the results depend on the processing

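With both guides over control, falls ranged from 21 to 42 and rises from 5 to 12 over the alternatives. The 21 falls came without guide 5 replicate 1, where 9.74% of all genes fell, and the 42 with the GC correction, where 29.4% did. The 5 rises came with a mean CPM of at least 5, where 19.7% of all genes rose. The 12 rises came without control replicate 2, where 27.0% of all genes rose. A mean CPM of at least 5 left 5 rises (7 with guide 3 and 5 with guide 5), because fewer scarce genes were tested, and the filter on FPKM left 5 rises with guide 5. Correction for GC content and length gave 7 rises with guide 3. Between the guides, quantile normalization called 1 member higher and 1 lower with guide 5, and the GC correction 1 higher and 2 lower; the cause was not tested. With single libraries left out, rises with guide 3 numbered 6 to 14, falls with guide 3 5 to 31, rises with guide 5 3 to 9, falls with guide 5 6 to 32, members higher with guide 5 than with guide 3 0 to 1, and members lower 0 to 4. In the alternatives, shares of all genes were not counted for single guides or between the guides. Signs turned under the GC correction for 16 of the 80 members, among them HSF1 (-0.34), HSPA1A (-0.47), BAG3 (-0.18) and HSPB1 (-0.40), and under quantile normalization for HSPA1A (-0.37). Of the alternative values of single named members, 531 kept direction and side of the threshold, 12 passed newly, 18 no longer passed and 5 changed sign. With the replicate number as a replicate block, 33 members fell and 11 rose, where 24.6% and 22.2% of all genes did. That fit drops control replicate 3, the lone library of its number. Leaving this library out without a block gave 33 and 11 as well, where 25.9% and 22.8% of all genes fell and rose. The labels give the numbers no meaning, and deviations of same-numbered libraries correlated at -0.489 to 0.373, of which the values between the guides are tied by having 2 libraries each. The limma voom fit of recovered reads, added after seeing the data, gave 30 falls and 8 rises, where 21.2% and 20.8% of all genes fell and rose. The planned edgeR fit was not run on these FPKM tables, and voom was used on the recovered reads in its place. Depth limits the genes near 0 reads in controls, HSPA6 and HSPA7.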
